A study of Homo sapiens with 4 samples.

Results

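The genes described are 32 genes of the amino acid response and of serine synthesis, listed by symbol, and each of the 32 is present once in both gene tables, out of 36601 genes in all. The list holds 7 transcription factors, 7 stress effectors, 5 amino acid transporters, 5 amino acid and related enzymes, 5 enzymes of serine and glycine synthesis and 3 mitochondrial folate enzymes. H9 is a human embryonic stem cell line, used here in the naive state, which resembles the pre-implantation epiblast. H9 naive cells (nES cells) were aggregated in micro-wells under low oxygen and induced with PALLY medium, which holds inhibitors of MEK (PD0325901), of TGFβ receptors (A83-01) and of ROCK (Y27632) with LIF and the lipid LPA, and later with LY medium, and for their initial 40 h they had 0 or 4 mM dm-αKG, the dimethyl ester of α-ketoglutarate, which enters cells. The aggregates sampled at 40 h were still in the compound, and the blastoids, hollow structures that model the blastocyst, were sampled at 120 h, after its withdrawal; only single-cavity blastoids were picked.

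Cells were marked with hashtag antibodies and pooled in 2 capture runs of 10x Genomics single-cell RNA-seq, run 1 with aggregates and blastoids at both doses and run 2 with blastoids at both doses. The unit was the arm, 1 hashtagged culture in 1 run, so each dose had 2 blastoid arms and 1 aggregate arm. All arms derive from 1 cell line, and the labels do not say whether the runs came from independent cultures. The paper describes the 120 h blastoid data as 2 independent experiments. The p-values rest on the spread between these few arms, moderated by a spread pooled over all genes. After filters 12647 cells were kept, 426 and 3900 blastoid cells at 0 mM, 1092 and 4974 at 4 mM (run 1 and run 2), and 1201 and 1054 aggregate cells at 0 and 4 mM. The share of singlets that passed the filters was 44.8% and 73.1% in run 1 blastoids, 81.0% and 89.0% in run 2 blastoids, and 71.7% and 55.7% in aggregates (0 and 4 mM). Median mitochondrial shares were 4.19% and 5.16% in aggregates. The runs share 8 barcodes among kept cells.

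Blastoid cells were split by their own UMIs (unique molecules counted). A cell was TE-like where KRT8, KRT18, GATA3 and CLDN4 together gave more UMIs than POU5F1, DPPA5, DPPA4, L1TD1 and TDGF1, and Epi-like otherwise. TE-like cells numbered 18, 49, 181 and 170 (0 and 4 mM of run 1, then of run 2), 418 of 10392, and 33 of these lay within 2-fold of the cut. Of 10 trophectoderm markers outside the rule, all 10 were above 1 CPM in each TE-like sum, and 6 or 7 in each Epi-like sum. Their summed levels were 1445 to 2726 CPM in TE-like and 44.4 to 49.4 CPM in Epi-like cells. The 8 epiblast markers outside the rule summed to 109 to 270 CPM in TE-like and 859.5 to 983 CPM in Epi-like cells. Among them DNMT3L at 0 mM was higher in TE-like (136 and 143 CPM) than in Epi-like cells (90.1 and 102 CPM). In aggregates 3 of 2255 cells passed the cut, so aggregates were not split. The run 1 arm at 0 mM holds only 18 TE-like cells and 456611 UMIs, the thinnest sum used. Levels are given as CPM, the UMIs of a gene scaled to a common total of UMIs in every sum; fewer cells with a transcript and less transcript per cell cannot be told apart in such sums.

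ATF4 is a transcription factor whose translation increases when the initiation factor eIF2 is phosphorylated, as happens when amino acids run short, when the endoplasmic reticulum is loaded or when mitochondria are impaired. It binds the C/EBP-ATF response element (CARE), often with a C/EBP partner, and turns on genes for amino acid import, amino acid and serine synthesis, tRNA charging and feedback. Because control acts largely on translation, the level of ATF4 mRNA need not follow its activity. Phosphoserine aminotransferase, made by PSAT1, joins serine synthesis to α-ketoglutarate, which it releases from glutamate.

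The letters of the CARE, TGATGNAA on either strand, were searched in the 250 bases before the start of each gene in RefSeq (GRCh38.p14), at any start listed there. They were found for 5 of the 25 members matched by symbol (ASNS, ATF3, CEBPG, CHAC1 and MTHFD1L) and for 3.89% of 27305 genes; 7 members were not matched. A match in such a window is a description of letters and not a measured site. RefSeq starts differ from the outermost start in GENCODE, and 4 of the 5 stretches shown, all but that of ATF3, lie inside the GENCODE span of the gene. Of the 5 members with the letters 3 rose in Epi-like cells (below). These were ASNS, whose level is uncertain (below), ATF3 and CHAC1. Of the 20 matched members without the letters 7 rose, and of the 7 members not matched 3 did. Among all genes tested there 5.2% rose. The share that rose among all genes with the letters was not counted, so a link between the letters and the rises was not tested. The matches are shown as stretches of letters alone, with the matching letters in capitals and 30 bases of the strand of the gene:
ASNS (chr7:97872458-97872487, minus strand): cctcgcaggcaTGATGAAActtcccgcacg
CHAC1 (chr15:40953251-40953280, plus strand): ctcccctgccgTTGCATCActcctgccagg
ATF3 (chr1:212565205-212565234, plus strand): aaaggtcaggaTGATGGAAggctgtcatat
CEBPG (chr19:33374060-33374089, plus strand): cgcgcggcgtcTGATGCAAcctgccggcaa
MTHFD1L (chr6:150866346-150866375, plus strand): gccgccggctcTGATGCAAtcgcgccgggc
CHAC1 carries the letters in the reverse orientation, and the other 4 carry them in the direction of transcription.

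Levels were not divided by gene length and are compared for 1 gene between groups of cells, not between genes. ASNS (ENSG00000070669, chromosome 7 from 97851677 to 97872542) shares exons on the same strand with the counted gene AC079781.5, which held 365 UMIs against 827 for ASNS over all sums; reads in shared exons may be assigned to neither, and the level of ASNS is therefore uncertain. DDIT3 and PYCR1 overlap AC022506.1 and MYADML2 in the same way, with 0 UMIs in either, and 9 other members overlap a counted gene on the opposite strand alone.

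**Figure D1:**
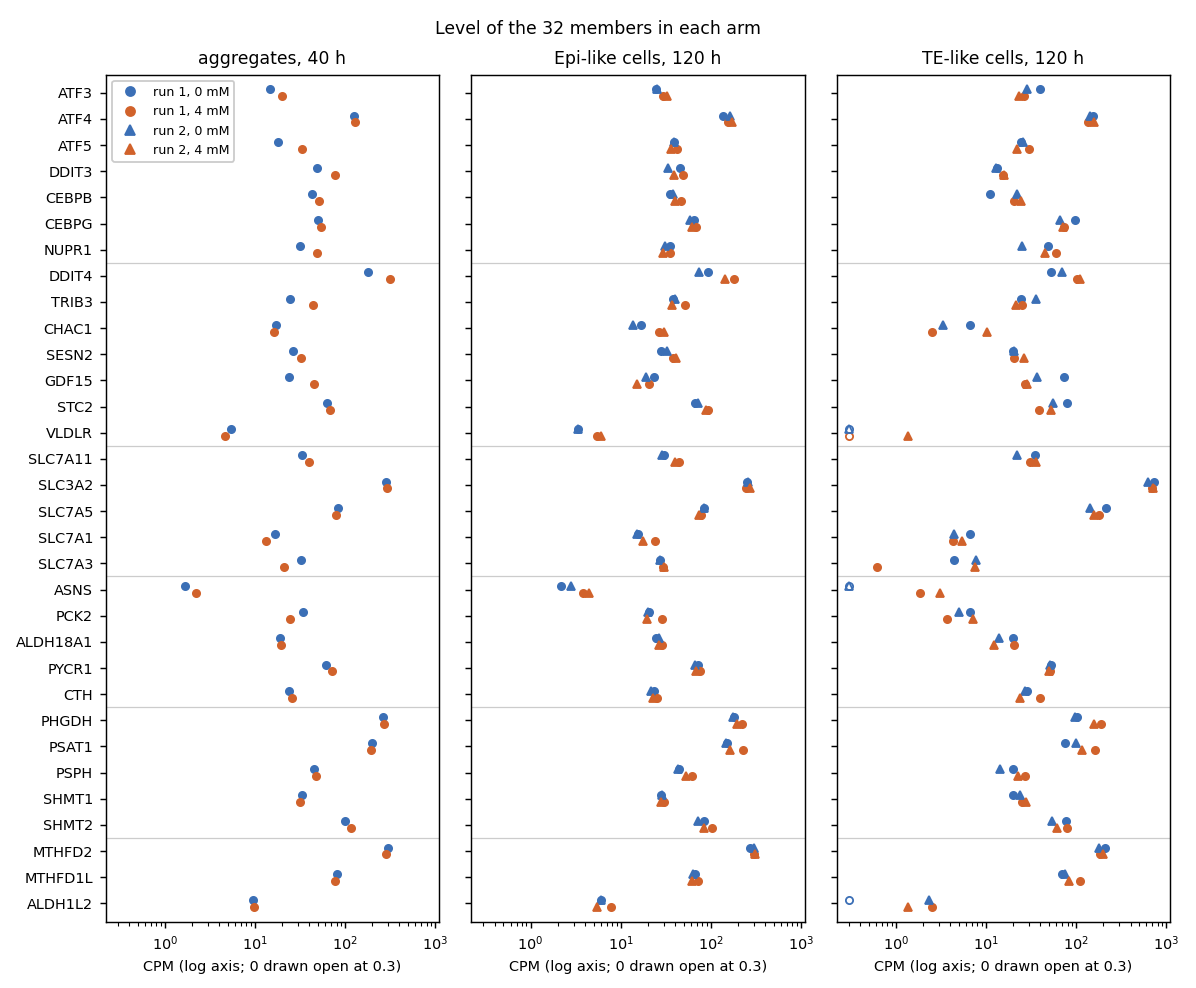
CPM of each of the 32 members (horizontal, log axis) in aggregates at 40 h and in Epi-like and TE-like cells of blastoids at 120 h, with 1 point per arm (blue 0 mM, orange 4 mM; circles run 1, triangles run 2; a level of 0 is drawn open at 0.3). DDIT4 at 4 mM lies right of 0 mM in each run and class, and SLC3A2 is at 630.5 CPM or more in TE-like cells and at 289.7 CPM or less in the others.

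In aggregates, which were sampled in the compound, 3 transcription factors (ATF5, DDIT3 and NUPR1) and 3 stress effectors (GDF15, TRIB3 and DDIT4) were more than 1.5-fold higher at 4 mM, and no serine or folate gene passed that limit. With 1 arm per dose there was no test; a member was counted where its CPM differed more than 1.5-fold at a mean of at least 20 CPM. Of 25 members at that level, 6 were higher and 1 was lower, against 0.963% higher and 1.26% lower among all 5090 genes at that level. The members were chosen with earlier results of these data known, so contrasts with all genes, here and below, are no independent evidence. The median log2 ratio was 0.109 for these members and -0.0286 for all genes. Ratio intervals are exact 95% intervals that cover counting error alone, and single-molecule counts of 1 culture do not show how far another culture would fall.

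Among transcription factors, ATF5, an ATF4 target that guards mitochondrial proteostasis, was at 18.1 CPM at 0 mM and 33.4 CPM at 4 mM, a ratio of 1.85 (1.67 to 2.04). DDIT3 (CHOP), which acts in prolonged stress, was at 48.7 and 76.5 CPM (ratio 1.57, 1.47 to 1.67). NUPR1, a stress-induced nuclear protein, was at 31.2 and 48.9 CPM (ratio 1.57, 1.45 to 1.70). ATF3, an early stress factor, was at 14.5 and 19.9 CPM, a ratio of 1.37 (1.22 to 1.55) but below the level asked for. ATF4 itself was level, at 125 and 129 CPM (ratio 1.03, 0.988 to 1.08).

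Among stress effectors, GDF15, a secreted stress hormone, was at 23.95 and 44.9 CPM (ratio 1.87, 1.72 to 2.04). TRIB3, a pseudokinase that restrains ATF4, was at 24.6 and 43.5 CPM (ratio 1.77, 1.63 to 1.93). DDIT4 (REDD1), an inhibitor of mTORC1, was at 180.2 and 313 CPM (ratio 1.74, 1.685 to 1.795). The other effectors stayed nearer to 1, with SESN2 at a ratio of 1.22 and STC2 at 1.07, and CHAC1, which breaks down glutathione, was at 17.03 and 16.2 CPM (ratio 0.952, 0.845 to 1.07). Summed over the 7 effectors the level was 341 CPM at 0 mM and 522.5 CPM at 4 mM, a ratio of 1.53 (1.497 to 1.569), with DDIT4 giving 6508 of 12312 UMIs at 0 mM and 9645 of 16078 at 4 mM.

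The transporters of basic amino acids lay on the other side. SLC7A3 was at 31.9 and 20.7 CPM (ratio 0.65, 0.589 to 0.717) and was the member counted as lower, and SLC7A1 was at 16.6 and 13.1 CPM (ratio 0.791, 0.695 to 0.899). PCK2, the mitochondrial enzyme that makes phosphoenolpyruvate, was at 34.4 and 24.3 CPM (ratio 0.706, 0.644 to 0.774) and did not reach 1.5-fold. The cystine transporter gene SLC7A11 was at 32.95 and 39.8 CPM (ratio 1.21, 1.12 to 1.31).

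Serine genes differed little at 40 h. The 5 genes of serine and glycine synthesis summed to 638 CPM at 0 mM and 661 CPM at 4 mM (ratio 1.04, 1.02 to 1.06), and the 3 folate enzymes to 387 and 368 CPM (ratio 0.952, 0.928 to 0.976). PHGDH, the first enzyme of serine synthesis, was at 262 and 270.2 CPM, and PSAT1 at 196 and 195 CPM. SHMT2, which makes glycine in mitochondria, was the one with the largest ratio, at 1.15 (1.098 to 1.205). None of the 8 passed the 1.5-fold rule.

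Among aggregate cells with at most 5% mitochondrial UMIs (848 and 474 cells, median shares 3.75% and 4.02%), the 6 ratios were at least as large, with 2.05 for GDF15, 2.01 for TRIB3, 1.92 for ATF5, 1.85 for DDIT4, 1.78 for NUPR1 and 1.71 for DDIT3, and the same number, 6, were higher. No member was lower past 1.5-fold there, since SLC7A3 stood at 0.672. Keeping every singlet likewise left 6 higher and 0 lower. The 4 trophectoderm genes of the class rule summed to 284 and 375 CPM in aggregates, the 10 trophectoderm markers outside it to 107.2 and 77.7 CPM and the 8 epiblast markers to 882 and 831 CPM; their part in the aggregate ratios was not tested.

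At 120 h, in Epi-like cells, 13 of the 32 members rose at 4 mM and 1 fell (edgeR quasi-likelihood test on summed arms with the run in the model, Benjamini-Hochberg adjusted over 17014 genes at 0.05; n = 2 arms per dose). In the same fit 5.2% of all genes rose and 3.49% fell. Since the list was chosen with earlier results of these data known, this contrast is no independent evidence. Each of the 14 called members moved one way in run 1 and run 2 alike, but both runs entered the calls, so this is no separate check. Of all 32 members 24 had the same sign in both runs. The median log2 change was 0.152 for the members and -0.00896 for all genes. The count rests on the run term and on all 4 arms. Of the 13, 2 kept the call without the run in the model (DDIT4 and CHAC1) and 4 with DESeq2 (DDIT4, SLC7A11, STC2 and PSPH). DESeq2 gave no adjusted p for ASNS and VLDLR, which are counted as not kept. With 1 arm left out, in fits that also lose the run term, 3 (without 0 mM run 1), 3 (without 4 mM run 1), 0 (without 0 mM run 2) and 8 (without 4 mM run 2) kept it. Run 1 had the 0 mM blastoid arm with the lowest share of kept singlets, and the within-run ratios below show each run apart.

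CHAC1 and DDIT4 had the largest fitted changes. At 0 and 4 mM CHAC1 was at 16.8 and 26.7 CPM (run 1) and at 13.8 and 30.7 CPM (run 2). Its log2 change was 0.99 ± 0.0899 (SE, adjusted p = 7.3e-10), and DESeq2 gave 0.91 ± 0.282 with an adjusted p of 0.0535. DDIT4 went from 92.1 to 183 CPM and from 74.85 to 143 CPM, a log2 change of 0.96 ± 0.0635 (adjusted p = 4.3e-13), and DESeq2 gave 0.955 ± 0.0819 (adjusted p = 1.8e-27). Its runs were close, at 0.99 and 0.93, and it was the member called in the most alternatives, 13 of 14, the exception being the fit without the 0 mM arm of run 2. At 40 h DDIT4 was higher and CHAC1 was not.

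VLDLR, a lipoprotein receptor gene induced by ATF4, rose from 3.38 to 5.41 CPM and from 3.38 to 5.98 CPM (log2 0.79 ± 0.136). SESN2, a leucine sensor that restrains mTORC1, rose from 27.9 to 38.3 CPM and from 33.1 to 41.2 CPM (0.37 ± 0.0701). STC2, a secreted glycoprotein, rose from 66.9 to 94.0 CPM and from 72.7 to 88.0 CPM (0.37 ± 0.0648). GDF15 was the member that fell, from 23.5 to 20.8 CPM and from 19.2 to 15.4 CPM (log2 -0.26 ± 0.0799, adjusted p = 0.032), and TRIB3 did not pass, with within-run values of 0.45 and -0.10 that point apart. The 7 effectors summed to 269 and 420.1 CPM in run 1 and to 257 and 361 CPM in run 2, ratios of 1.56 and 1.41.

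Of the 7 transcription factors ATF3 alone passed, from 24.7 to 29.2 CPM and from 25.2 to 32.7 CPM (0.33 ± 0.0747, adjusted p = 0.00306). ATF4 was at 136 and 154 CPM in run 1 and 164 and 172 CPM in run 2, with a log2 change of 0.12 ± 0.0628 (adjusted p = 0.252). DDIT3 was at 0.17 ± 0.0686 (adjusted p = 0.134) and CEBPB at 0.20 ± 0.0725 (adjusted p = 0.0738). ATF5 and NUPR1, which were higher in aggregates, had changes of -0.03 each.

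Among transporters SLC7A11, which exchanges cystine for glutamate, rose from 30.04 to 44.5 CPM and from 28.4 to 39.9 CPM (0.52 ± 0.0697, adjusted p = 2.3e-06). SLC7A1, the cationic amino acid transporter CAT1, rose from 15.6 to 24.0 CPM and from 15.3 to 17.9 CPM (0.36 ± 0.0862). SLC3A2 and SLC7A5, the chains of the large neutral amino acid exchanger, did not pass, at 0.02 ± 0.0635 and -0.17 ± 0.063, nor did SLC7A3 at 0.14 ± 0.0728.

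Among amino acid enzymes ASNS, asparagine synthetase, was the one of 5 that rose, from 2.2 to 3.83 CPM and from 2.83 to 4.44 CPM (0.69 ± 0.15, adjusted p = 0.00202), with the uncertainty of its shared exons. PCK2, ALDH18A1, PYCR1 and CTH had changes between 0.07 and 0.16.

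Of the 5 genes of serine and glycine synthesis 4 rose. PSPH, which releases serine from phosphoserine, went from 44.5 to 62.5 CPM and from 42.8 to 52.7 CPM (0.38 ± 0.0669). PSAT1 was at 151 and 227 CPM in run 1 but at 149 and 165.5 CPM in run 2 (0.35 ± 0.0699), a larger step in run 1. Its within-run values were 0.59 and 0.15, further apart than this SE shows, and DESeq2 gave 0.36 ± 0.224 (adjusted p = 0.566). SHMT2 rose by 0.26 ± 0.063 and PHGDH by 0.20 ± 0.0628. PHGDH levels were 181 and 220.4 CPM in run 1 and 177 and 194 CPM in run 2. The edgeR adjusted p-values were 1.96e-04, 8.2e-04, 0.00601 and 0.038 for PSPH, PSAT1, SHMT2 and PHGDH. SHMT1, the cytosolic partner, was at 0.04 ± 0.0722, and none of the folate enzymes MTHFD2, MTHFD1L and ALDH1L2 passed (0.02 to 0.08). The sum of the 5 genes had a ratio of 1.32 (1.28 to 1.36) in run 1 and 1.12 (1.101 to 1.135) in run 2.

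**Figure D2:**
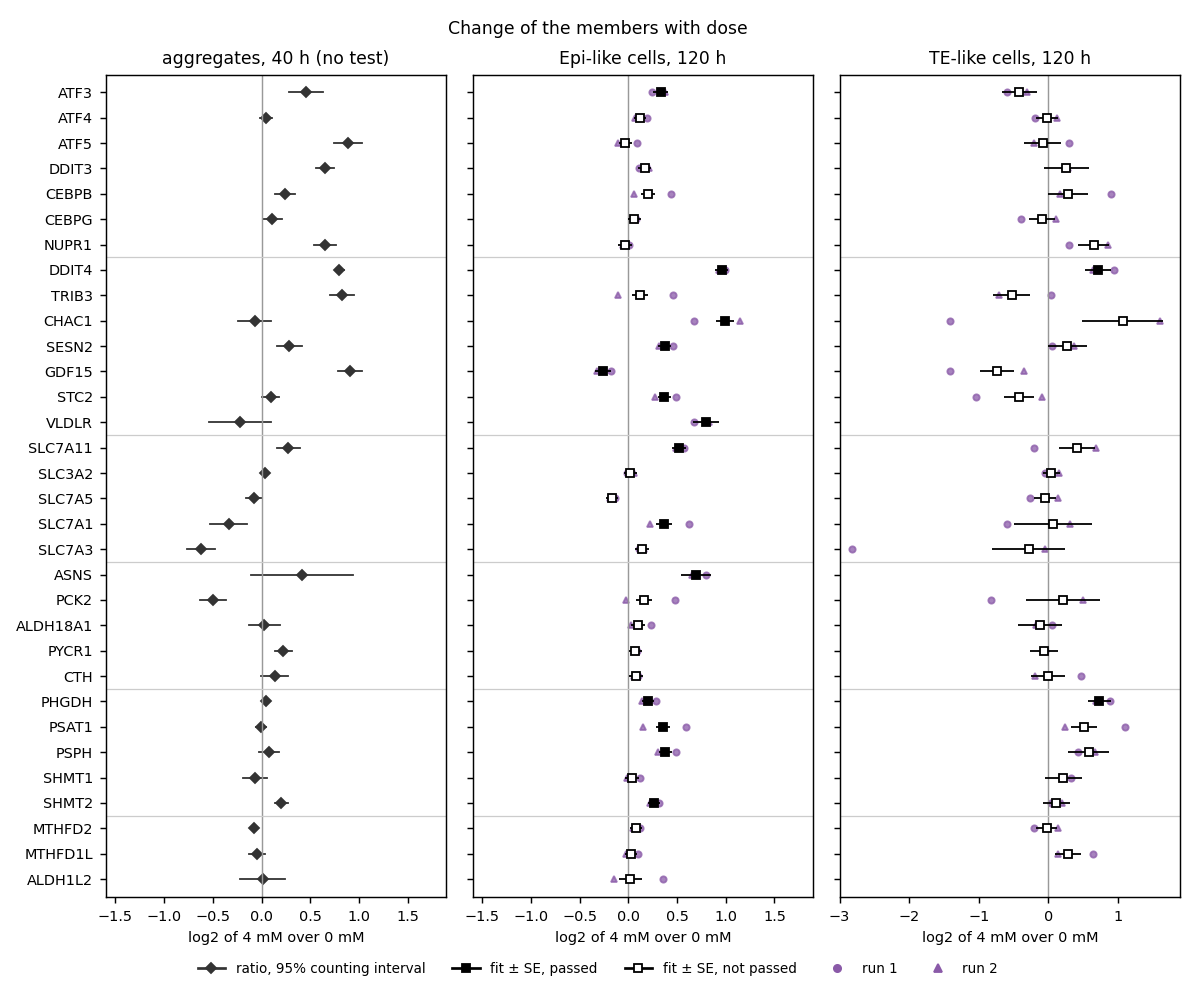
log2 of 4 mM over 0 mM dm-αKG (horizontal) for each member. Diamonds are ratios of the single aggregate arms with 95% counting intervals; squares are fits in blastoid cells with SE, filled where the adjusted p was under 0.05, beside each run (circle run 1, triangle run 2). In Epi-like cells 13 squares right of 0 and 1 left of it are filled, in TE-like cells 2 right of 0; the TE-like axis spans a wider range, and ASNS, VLDLR and ALDH1L2 were not tested there.

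Levels per cell were compared next. With each cell thinned to 5000 UMIs, the 24 members outside the serine and folate groups gave a median of 5 UMIs per Epi-like cell at 0 mM and 7 at 4 mM in run 1, and 5 and 6 in run 2; in aggregates it was 6 and 7. The 5% of cells with the most of these UMIs held 11.4% and 11.3% of them in Epi-like cells of run 1, 12.0% and 11.3% in run 2 and 11.4% and 11.2% in aggregates. In TE-like cells, with 18 to 181 cells an arm, it was 11.3% and 13.2% in run 1 and 12.9% and 10.6% in run 2. Before thinning the same genes summed to 1201 and 1433 CPM in run 1, 1201 and 1349 CPM in run 2 and 1260 and 1522 CPM in aggregates. Median depths were 28952.5 and 30015 UMIs per cell in run 1 and 15453 and 15807 in run 2.

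**Figure D3:**
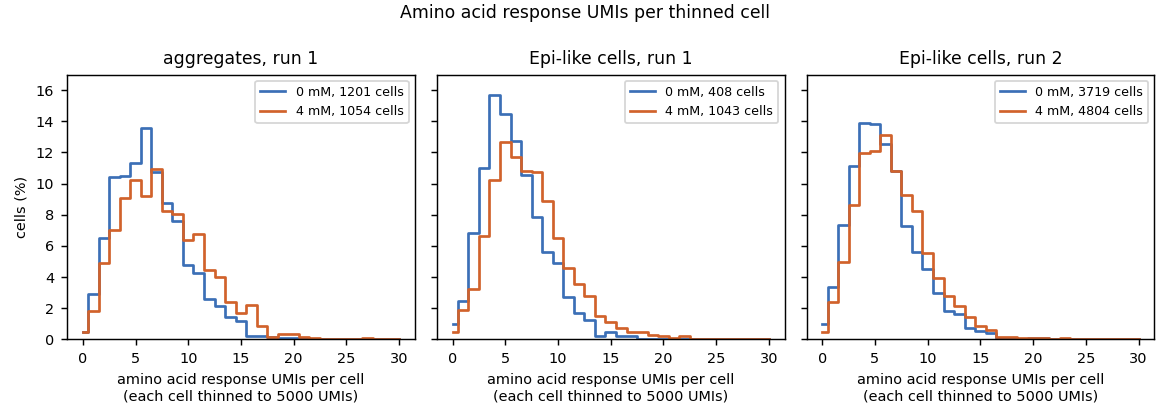
Share of cells (vertical, %) by UMIs of the 24 amino acid response members per cell after thinning to 5000 UMIs (horizontal), for 0 mM (blue) and 4 mM (orange). The orange outline lies to the right of the blue one, with medians of 6 and 7 in aggregates, 5 and 7 in run 1 and 5 and 6 in run 2.

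Some markers also differed by dose in Epi-like cells, not all in one direction. The 4 trophectoderm genes of the class rule summed to 232 and 328 CPM in run 1 and to 228 and 294.6 CPM in run 2, whereas the 10 trophectoderm markers outside the rule were at 47.5 and 44.4 CPM and at 49.4 and 47.0 CPM. Of the 4 genes of the rule, KRT18 (180 to 260 and 172 to 222 CPM) and KRT8 (48.5 to 65.9 and 51.7 to 69.3 CPM) were higher. GATA3 (0.76 to 0.43 and 0.97 to 0.79 CPM) and CLDN4 (2.37 to 1.36 and 3.49 to 2.15 CPM) were lower. The 8 epiblast markers outside the rule had ratios of 1.14 and 1.05. Median mitochondrial shares were 4.40% and 4.33% in run 1 and 4.02% and 4.20% in run 2, and with at most 5% mitochondrial UMIs 12 members rose and 1 fell. The part of the markers in these results was not tested.

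In TE-like cells 2 members rose and none fell of the 29 tested, where 0.648% of 9104 genes rose and 0.791% fell. PHGDH was at 101 and 186 CPM (run 1) and at 97.6 and 156.5 CPM (run 2) (log2 0.73 ± 0.165, adjusted p = 0.0159). DDIT4 went from 52.6 to 102 CPM and from 70.1 to 109.8 CPM (0.72 ± 0.185, adjusted p = 0.0441). DDIT4 was called in 4 of 14 alternatives and in none that left out an arm; PHGDH was called in 9 of 14, and not without the 4 mM arm of run 1 or the 0 mM arm of run 2. Neither passed with DESeq2, without the run in the model or at a limit of 5% mitochondrial UMIs, which leaves 6 cells in the arm of run 1 at 0 mM. At an unadjusted p under 0.05 there were 5 members, PHGDH, DDIT4, NUPR1 (0.65 ± 0.224) and PSAT1 (0.51 ± 0.186) above 0 and GDF15 (-0.74 ± 0.245) below.

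The serine genes pointed one way in TE-like cells, all 5 being above 0 (median 0.51 beside -0.00472 for all genes), though PHGDH alone passed. Their sum was 291 and 476 CPM in run 1, and 287 and 384 CPM in run 2, ratios of 1.63 (1.36 to 1.98) and 1.34 (1.22 to 1.46). ASNS gave 0 UMIs at 0 mM in both runs and 3 and 9 UMIs at 4 mM, and VLDLR gave 4 UMIs in 1 arm and 0 in the other 3, too few to be tested. Within TE-like cells the 10 markers outside the rule went from 1445 to 2726 CPM and from 1453 to 2207 CPM, the 8 epiblast markers from 188 to 109 CPM and from 270.4 to 222 CPM, and primitive endoderm markers from 76.7 to 32.8 CPM and from 8.05 to 30.8 CPM. The TE-like arms had median mitochondrial shares of 6.1% and 3.72% in run 1 and 3.68% and 4.04% in run 2. The part of these measures in the results was not tested.

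No member differed in its dose effect between the classes in the test of that difference, where 0.38% of 13174 genes were called higher and 0.395% lower. At an unadjusted p under 0.05 there were 6 members, and DESeq2 called none. The values nearest to a call were STC2, with a difference of -0.76 ± 0.228 (adjusted p = 0.0945), and PHGDH and NUPR1, with 0.59 ± 0.189 and 0.79 ± 0.252 (adjusted p = 0.144 each). With other size factors or without them STC2 passed as lower and PHGDH as higher in TE-like cells, and with cells near the cut left out STC2 and NUPR1 did, so these calls depend on the setting. The thin TE-like sums limit this test.

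**Figure D4:**
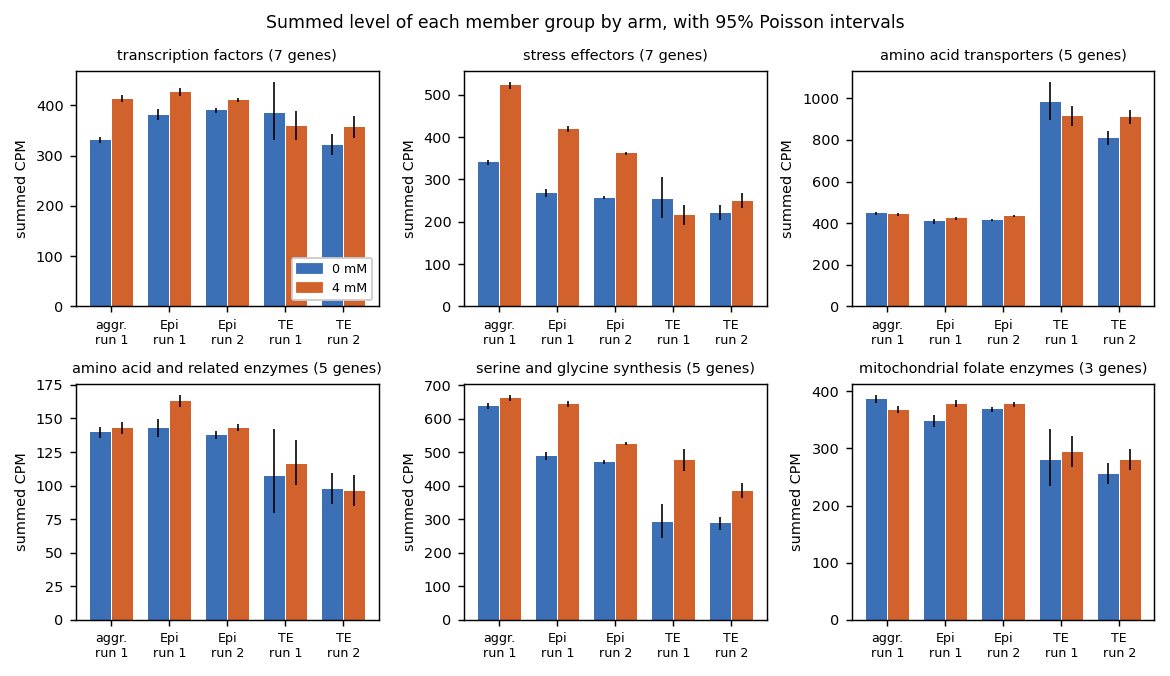
Summed CPM of the 6 member groups (vertical, from 0) in aggregates and in Epi-like and TE-like cells of each run, at 0 mM (blue) and 4 mM (orange), with exact 95% Poisson intervals. Stress effectors reach 522.5 CPM in aggregates at 4 mM, and transporters lie at 808 to 983 CPM in TE-like cells against 408 to 448 CPM in the others.

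More members were called between the classes than by dose. The same held for all genes, of which 5.2% rose and 3.49% fell by dose in Epi-like cells, and the fits differ in their number of arms. In TE-like against Epi-like cells of the same arm 7 members were higher and 17 lower (edgeR with the arm in the model, n = 4 arms), beside 23.1% higher and 25.9% lower among 12352 genes. The share higher was thus near that of all genes, and the share lower was above it. With total counts in place of TMM factors 4 were higher and 21 lower, and the median of all genes moved from -0.0402 to -0.272, so the smaller changes hold relative to that shift. The class rule used none of the 32 genes, but cells were classed by other genes of the same cells.

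The chains of the large neutral amino acid exchanger had the largest positive changes. SLC3A2, the heavy chain, was at 630.5 to 723 CPM in TE-like and at 248 to 271 CPM in Epi-like cells (log2 1.63 ± 0.0714, 3.10-fold, adjusted p = 1.4e-11). SLC7A5 (LAT1), its light chain, was at 143 to 215 CPM against 74.7 to 85.0 CPM (1.29 ± 0.0948, 2.44-fold). The groups did not overlap for either gene, and the share of all genes for which this holds was not counted. The transporters of basic amino acids went the other way, SLC7A3 by -2.07 ± 0.26 and SLC7A1 by -1.65 ± 0.213, and SLC7A11 did not pass (-0.05 ± 0.129). SLC7A3 was at 0.619 to 7.71 CPM in TE-like and 27.3 to 30.6 CPM in Epi-like cells.

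GDF15 was at 27.2 to 72.3 CPM in TE-like and 15.4 to 23.5 CPM in Epi-like cells (1.13 ± 0.151). MTHFD1L (0.61 ± 0.102), NUPR1 (0.60 ± 0.154), CTH (0.55 ± 0.136) and CEBPG (0.43 ± 0.0967) were the other members higher in TE-like cells. NUPR1, CTH and CEBPG lost the call with total counts, and NUPR1 also without the 4 mM arm of run 2.

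Lower in TE-like cells were CHAC1 (-1.75 ± 0.232), PCK2 (-1.73 ± 0.218), DDIT3 (-1.24 ± 0.143) and PSPH (-1.10 ± 0.128). VLDLR (-3.03 ± 0.581) and ALDH1L2 (-1.51 ± 0.348) were lower too, from at most 4 and 7 UMIs in any TE-like arm. DDIT3 was at 12.7 to 15.6 CPM in TE-like and at 33.6 to 49.2 CPM in Epi-like cells, while ATF4 was at 134 to 156 CPM and 136 to 172 CPM and did not pass (0.10 ± 0.0856). Of the 3 enzymes of the serine chain all were lower, PHGDH by -0.30 ± 0.11 and PSAT1 by -0.38 ± 0.0975 beside PSPH, and PHGDH was not called without either arm at 0 mM. Further lower members were CEBPB, ALDH18A1, SESN2, MTHFD2, STC2, ATF5, TRIB3, with changes from -0.70 to -0.39, and without the 4 mM arm of run 2 ALDH18A1, ATF5, TRIB3 and STC2 were not called. TRIB3 and STC2 were also not called without the 4 mM arm of run 1, and TRIB3 without the 0 mM arm of run 1.

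**Figure D5:**
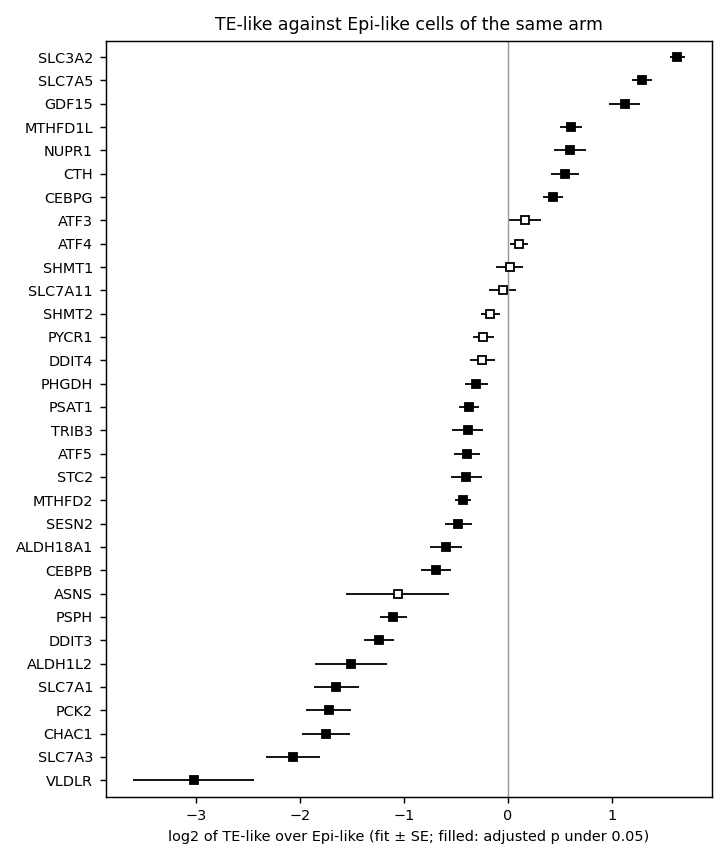
log2 of TE-like over Epi-like cells of the same arm (horizontal) for the 32 members, with SE, in order of size; filled squares have an adjusted p under 0.05. SLC3A2, SLC7A5 and GDF15 stand right of 1, and 17 filled squares lie left of 0.

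Other genes of the pathway were counted in the same fits, where 5.2% of all genes rose and 3.49% fell in Epi-like cells. Of 16 genes of the eIF2 arm 1 rose in Epi-like cells, PPP1R15B (0.43 ± 0.0748), which codes for a phosphatase subunit that reverses eIF2 phosphorylation, and the kinase genes EIF2AK1 to EIF2AK4 did not pass. Of 20 cytosolic aminoacyl-tRNA synthetase genes, several of which are known ATF4 targets, none rose and 1 fell (AARS, -0.25 ± 0.0659). Their sum had ratios of 1.096 and 1.014 in Epi-like cells (run 1 and run 2) and of 0.884 (0.875 to 0.892) in aggregates. Of 15 chaperone genes of the endoplasmic reticulum 1 rose (PDIA4, 0.19 ± 0.0627). Their sum had ratios of 1.091 and 1.064 in Epi-like cells (run 1 and run 2) and of 0.917 in aggregates. Of 10 other amino acid uptake genes 2 rose, the glycine transporter gene SLC6A9 (0.71 ± 0.136) and SLC38A2 (0.58 ± 0.0679), which imports small neutral amino acids. SLC38A2 was at 35.9 and 45.4 CPM in aggregates. Of 12 one-carbon genes MAT2A, which makes S-adenosylmethionine, rose by 0.25 ± 0.0636 and none fell. In aggregates FARSB, a synthetase gene, was at 28.4 and 18.7 CPM and MTHFD1, a cytosolic folate enzyme gene, at 81.2 and 54.1 CPM, and these were the only genes of the 5 lists past 1.5-fold. No gene of these lists passed in TE-like cells.

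Between the classes, of 9 tested uptake genes 3 were higher in TE-like cells and 4 lower. SLC7A8 (3.00 ± 0.0853) and SLC38A1 (1.12 ± 0.107), carriers of neutral amino acids, were among the former and SLC43A1 (-2.31 ± 0.499) and SLC36A4 (-1.11 ± 0.217) among the latter. GCSH and GLDC, parts of the glycine cleavage system, went apart at 0.95 ± 0.0882 and -1.34 ± 0.136. Of the 20 synthetase genes 4 were higher and 9 lower, beside 23.1% higher and 25.9% lower among all genes, with WARS at -1.24 ± 0.104.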

How the data were processed

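Per the labels and methods, the authors made the deposited UMI counts per gene and barcode with Cell Ranger 6.1.2 (bcl2fastq 2.20.0.422, GRCh38 of 10x Genomics) and analysed them with Seurat 4.3.0; hashtag counts stand in the same deposited matrices, of 9431 and 15133 barcodes. Here hashtags were assigned with HTODemux (Seurat 5.3.0, quantile 0.99), giving 6012 and 10400 singlets, and barcodes called as hashtag doublets (512 and 1142) or as negative (2907 and 3591) were left out; no other doublet caller was run. Singlets with at most 15% mitochondrial UMIs and at least 7000 (run 1) or 5000 UMIs (run 2) were kept. Summed arms held 456611 to 81804868 UMIs. The members and gene lists were chosen with earlier results of these data known. All members were to be named, those that passed with values per arm, and of other lists at most 4 called genes.

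Sums were tested with edgeR 4.0.16 (R 4.3.3; TMM, filterByExpr, quasi-likelihood F test) across all genes, with the run, in which both doses were captured together, as replicate block for dose (1 residual degree of freedom), the arm as block for class (3) and for class by dose (2); DESeq2 1.42.0 was an alternative. In simulated counts with 200 genes changed by a log2 of 1, the fit recovered 193 for dose in Epi-like cells, 184 in TE-like cells, 165 for class and 83 for class by dose. False calls were 3, 6, 9 and 7. The simulation had no run or arm effect and changed well-counted genes alone. Its fixed dispersion was above that fitted for dose in Epi-like cells (0.0018) and below those of the other fits (0.0062 to 0.0095). Smaller changes were not simulated, so the recovery does not hold for them. Intervals are exact at 95% and cover counting error. In edgeR the spread of each gene was moderated by that of all genes. The prior degrees of freedom were 35.83 (dose, Epi-like), 26.31 (dose, TE-like) and 13.27 (class), and for class by dose the spread was pooled in full. A gene's own spread between arms thus has little weight in the dose tests. Each SE of an edgeR change is that change over the square root of its F statistic, an approximation that holds the same pooled spread. Gene positions were taken from GENCODE on GRCh38. Strand use in counting is not given in the sources used here.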

Additional observations from a re-analysis of the deposited data

Results flagged for a closer look

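For 7 members the log2 ratio by dose in aggregates had the opposite sign to that in both Epi-like runs, and the difference was not tested, since aggregates have 1 arm per dose. GDF15 was at 0.91 in aggregates and at -0.18 and -0.32 in the Epi-like runs. SLC7A3 was at -0.62 against 0.11 and 0.16, and SLC7A1 at -0.34 against 0.62 and 0.22. VLDLR was at -0.22 against 0.68 and 0.82, with a counting interval in aggregates that holds no change. The values of CHAC1 (-0.071), PSAT1 (-0.0073) and MTHFD2 (-0.081) in aggregates were near 0, and those of CHAC1 were 0.67 and 1.15 in the Epi-like runs. Aggregates and blastoids also differ in time, in medium and in the presence of the compound, which cannot be told apart here.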

How the results depend on the processing

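Against 13 rises in Epi-like cells, 4 members rose with DESeq2, 2 with no replicate block and 0 to 10 with 1 arm left out, of which 0 to 8 were among the 13; against 1 fall there were 0 with DESeq2, 0 with no replicate block and 0 to 0 with 1 arm left out, and 2 without the cell filter or with the hashtag margin. In TE-like cells, against 2 rises, there were 1 with the class margin, without the cell filter or with the hashtag margin, 0 with DESeq2, with no replicate block and at 5% mitochondrial UMIs, and 0 to 2 with 1 arm left out, of which at most 1 (PHGDH) was among the 2, and 1 member (GDF15) fell without the cell filter. Between classes the 7 higher members became 4 with total counts. For class by dose 1 was higher and 1 lower with RLE factors, with total counts and with the class margin. In aggregates the log2 ratio of the summed members, 0.159, was 0.139 without the cell filter, 0.21 at 5% mitochondrial UMIs, 0.191 without MTHFD2 and 0.0881 without DDIT4. The 1 lower member became 2 at the lower fold limit and 0 without the cell filter or at 5% mitochondrial UMIs. The 5% limit and the omission of DDIT4 were chosen after seeing the data. No called member reversed its sign under the settings run. Depth limits TE-like sums most, and the cause of the lost calls was not tested.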
